A study of Apis mellifera with 24 samples.

Results

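The TE annotation of the honey bee, Apis mellifera, holds 8 entries of the LINE family R2 among 34760 annotated transposable elements (TEs), 1074 of which carry a family name. They were chosen by that family name, with earlier results of these data known. LIN9_SM is the name of 1 entry, and the other 7 chain the name R2Amel between 1 and 8 times. They are called R2Amel-1 to R2Amel-5, R2Amel-7 and R2Amel-8 here, the number being the times the name is repeated. The entries are not 8 single copies, since the annotation joins 30 segments of 15527 bp in all into them.

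R2 is a non-LTR retrotransposon that, in the arthropods where it has been studied, inserts at a fixed site in the genes for the large ribosomal RNA and is copied through an RNA intermediate by its own reverse transcriptase. piRNAs are small RNAs that guide PIWI proteins of the Argonaute family. A piRNA antisense to a TE can pair with the transcript of that TE, so the direction of the reads is reported for every entry. Reads here are known by length only. For semen and testes the authors propose that many reads of this length were not true piRNAs, or were made in an unusual way. R1, a related element annotated here under the LINE family I, also inserts into ribosomal RNA genes in other insects.

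Reads of piRNA length were counted along (sense) and against (antisense) the annotated strand in 5 tissues of commercial honey bees, mainly of A. m. ligustica heritage. These were pooled semen of adult drones (2 libraries), testes of drone pupae taken 24, 72 or 144 h after pupation (3, 2 and 3 libraries, all pupae from a single colony), eggs less than 24 h after laying (8 libraries), and the spermatheca, the sperm store of a queen, and the ovaries of naturally mated, adult laying queens (3 libraries each). The egg libraries were 2 of fertilised and 2 of unfertilised eggs from mated queens, and 2 each of eggs laid in drone and in worker cells by virgin queens, which had been brought to lay by carbon dioxide narcosis. The deposited tables give 1 column per tissue, so the 3 ages of testes and the 4 kinds of eggs could not be separated. No spread between libraries could be had, and no value below has an SD or a test. Intervals are 95% Wilson intervals and cover counting error of reads only. Copies made by PCR are not independent molecules, so the intervals can be too narrow even for that. The identity of each tissue could not be checked against marker genes, because small RNA counts do not measure mRNA. The labels place semen, testes and eggs on other sequencing flow cells than ovaries, so tissue and flow cell cannot be told apart in these comparisons, while 2 of the 3 spermatheca libraries shared the flow cell of ovaries. Reads annotated as ribosomal RNA had been removed before counting, which bears on an element that sits in ribosomal RNA genes.

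The total of each table set what could be seen. These totals are piRNA-length reads on TEs after filtering, from unequal numbers of libraries. Sequencing depth and the makeup of the small RNAs of a tissue both enter them and cannot be told apart here. Antisense counts on all TEs summed to 42805 in semen, 722305 in testes, 9266109 in eggs, 836416 in spermatheca and 6472464 in ovaries. A count of 0 therefore allowed up to 0.00701% of the antisense TE counts in semen and up to 4.63e-05% in ovaries. Fewer cells carrying a small RNA and less of it per cell cannot be told apart in such tissue samples.

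LIN9_SM and the R2Amel entries lie in few places of the Amel 4.5 assembly. LIN9_SM is a single segment of 204 bp on the unplaced scaffold GroupUn98, bases 15798 to 16001, on the plus strand. The R2Amel segments are spread over the unplaced scaffolds GroupUn179 (17 segments, 9355 bp), GroupUn98 and GroupUn4718 (3 segments, 592 bp), with 1 segment of 274 bp on chromosome 10, bases 6951566 to 6951839. With LIN9_SM included, GroupUn98 holds 9 segments and 5306 bp. Segments range between 11 and 1415 bp, and 4 entries combine segments of both strands. R2Amel-7 is the only R2Amel entry of 1 segment, 1350 bp on GroupUn179, bases 18539 to 19888.

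LIN9_SM stood apart from the 7 R2Amel entries. It had 6582 antisense counts in semen, 15830 in testes, 1052 in eggs, 6113 in spermatheca and 616 in ovaries. Its counts were thus highest in testes, semen and spermatheca, although eggs and ovaries had far larger antisense totals. It had 0 sense counts in every tissue, which allows a sense share of up to 0.0190% in testes and up to 0.487% in ovaries. LIN9_SM alone made 15.4% of all antisense TE counts in semen (15.0 to 15.7), 2.19% in testes, 0.0114% in eggs, 0.731% in spermatheca and 0.00952% in ovaries. Among all TEs it ranked 3rd in semen by antisense counts, 10th in testes, 246th in eggs, 27th in spermatheca and 300th in ovaries.

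The R2Amel entries had most of their unscaled counts in eggs and ovaries, the tissues with the largest antisense totals, and few in semen. As a share of antisense TE counts they were highest in testes, at 15.8%. This share was 8.09% in eggs, 4.48% in ovaries, 3.68% in spermatheca and 0.547% in semen. R2Amel-2 had 85 antisense counts in semen, 43693 in testes, 306698 in eggs, 10692 in spermatheca and 96049 in ovaries. R2Amel-1 had 72, 37538, 252957, 8441 and 97439 in the same tissues. These were the most counted R2Amel entries in all 5 tissues, R2Amel-2 ahead of R2Amel-1 everywhere but in ovaries.

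R2Amel-4 had 30 antisense counts in semen, 15137 in testes, 103492 in eggs, 4179 in spermatheca and 37553 in ovaries. R2Amel-3 had 23, 9035, 58881, 5493 and 37901 in the same order. R2Amel-7 had 24, 8448, 27338, 1904 and 20981. For all 5 of these entries eggs held the most unscaled counts and semen the fewest.

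The remaining entries were sparse. R2Amel-5 had 0 antisense counts in semen, 28 in testes, 348 in eggs, 18 in spermatheca and 161 in ovaries. R2Amel-8 had 0, 19, 158, 23 and 171 in the same tissues, over 2355 bp. Neither passed 348 antisense counts in any tissue, far below the other entries in the plot of counts by entry.

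**Figure D1:**
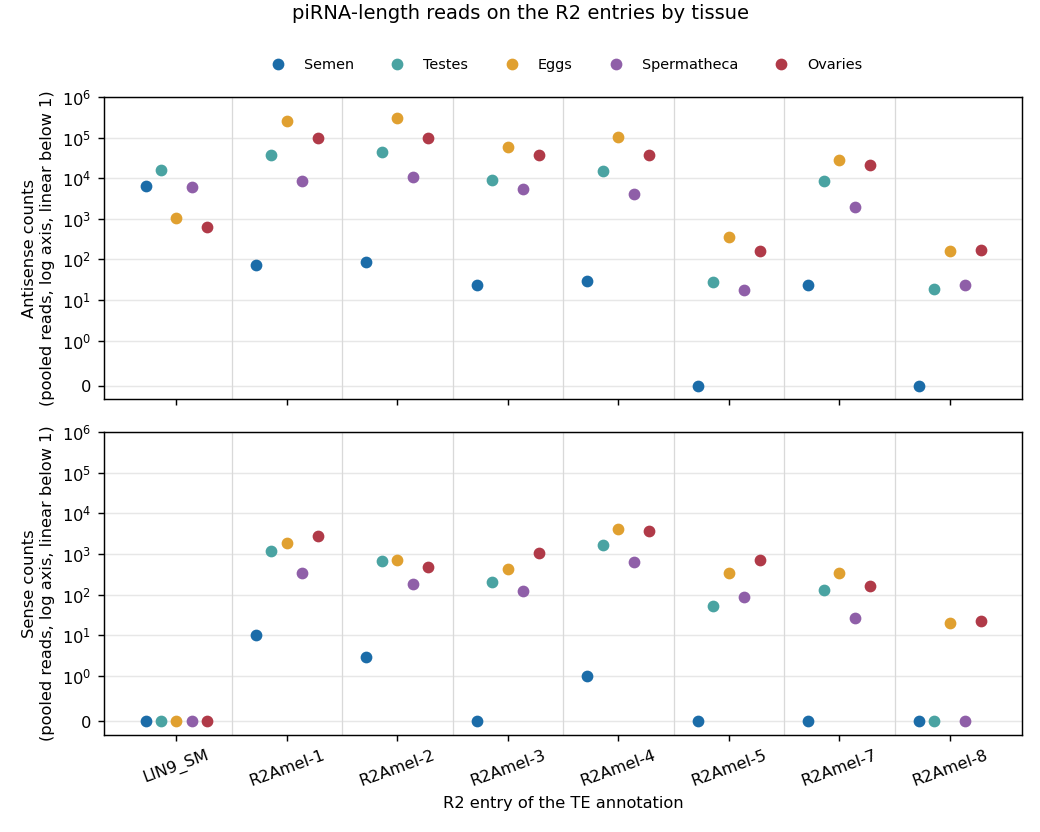
Antisense (upper) and sense (lower) counts on each R2 entry, 1 point per tissue, as pooled reads on a log axis that is linear below 1. LIN9_SM has 15830 antisense counts in testes against 616 in ovaries and no sense count, whereas R2Amel-2 has 306698 antisense counts in eggs and 85 in semen.

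Compared per length, the entry with the densest reads depended on the tissue. LIN9_SM had 32265 antisense counts per kb in semen, 77598 in testes and 29966 in spermatheca, against 37.9, 19488 and 4769 per kb on R2Amel-2, the densest R2Amel entry. In eggs and ovaries the order was the other way. LIN9_SM had 5157 and 3020 per kb in these tissues, and R2Amel-2 had 136797 and 42841 per kb. By counts the leading entry was LIN9_SM in semen, with 96.4% of R2 counts (95.9 to 96.8). R2Amel-2 led in testes (33.2%), eggs (40.5%) and spermatheca (28.4%), and R2Amel-1 in ovaries (33.4%).

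Within the R2Amel entries the makeup varied much less than the totals. R2Amel-1 made 30.8% of the antisense R2Amel counts in semen (25.2 to 37.0), 33.0% in testes, 33.7% in eggs, 27.5% in spermatheca and 33.6% in ovaries. R2Amel-4 made between 12.8% (semen) and 13.8% (eggs). R2Amel-3 made 9.83% in semen (6.64 to 14.3), 7.93% in testes, 7.85% in eggs, 17.9% in spermatheca (17.4 to 18.3) and 13.1% in ovaries. R2Amel-7 made 10.3% in semen (6.99 to 14.8), 7.42% in testes, 3.65% in eggs, 6.19% in spermatheca and 7.23% in ovaries. Since an interval here covers counting error only, whether such differences exceed the spread between libraries is not known.

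Of the sense and antisense counts on TEs with a family, R2 held 83.9% in semen and 47.0% in testes, where it ranked 1st among families, 22.5% in eggs and 19.6% in spermatheca, where it ranked 2nd, and 13.9% in ovaries, where it ranked 3rd. Without LIN9_SM the semen share was 15.9%. In the paper's own table of TE families, R2 has a similar share in semen but lower shares in the other tissues. R2 is not the leading family of testes there. Why those values differ from the shares given here was not tested. Of the counts on all TEs, R2 held 5.11% in semen, 11.6% in testes, 0.855% in eggs, 0.635% in spermatheca and 0.520% in ovaries. Without ms43364, the most counted TE of semen, the semen share was 12.9%. Its share of the antisense counts on all TEs was 15.9% in semen (15.6 to 16.3), 18.0% in testes (17.9 to 18.1), 8.10% in eggs, 4.41% in spermatheca and 4.49% in ovaries. The similar shares of semen and testes were made by different entries. The 7 R2Amel entries gave 0.547% in semen (0.481 to 0.621) and 15.8% in testes, as the plot of R2 shares shows. They gave 8.09% in eggs, 3.68% in spermatheca and 4.48% in ovaries.

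**Figure D2:**
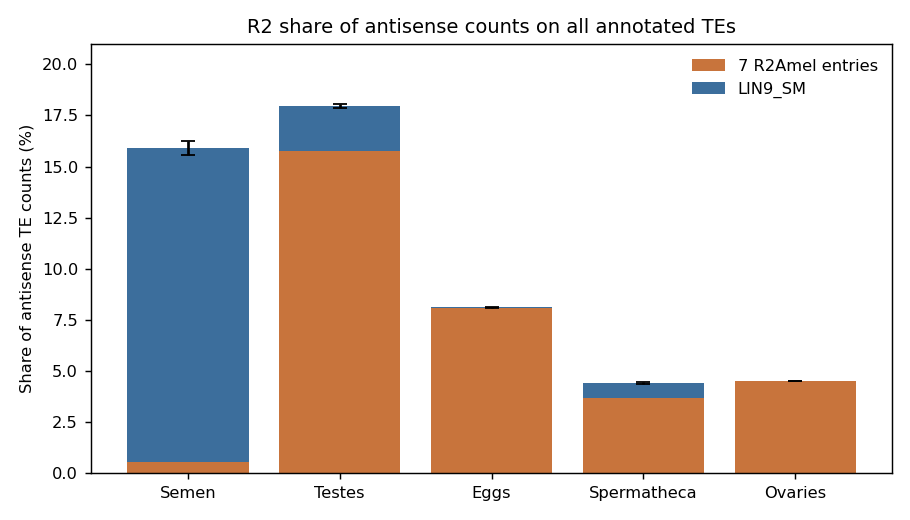
Share of all antisense TE counts on LIN9_SM (blue) and on the 7 R2Amel entries (orange) in each tissue, in percent, with the 95% Wilson interval of the total. The share is 15.9% in semen, nearly all LIN9_SM, and 18.0% in testes, of which R2Amel gives 15.8%.

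Per length, the R2 entries together had more antisense counts than any other LINE family. In semen this rested on LIN9_SM, which held 6582 of the 6816 antisense counts. The R2Amel entries had between 0 and 37.9 antisense counts per kb in semen, where family I had 20.95 sense counts per kb. The R2 entries together had 439 antisense counts per kb in semen, 8355 in testes, 48362 in eggs, 2374 in spermatheca and 18733 in ovaries. The 40 entries of family I (17760 bp, among them the R1 elements) had 1.07, 588, 4823, 327 and 2039 per kb in these tissues. The 22 entries of Jockey stayed between 0.0754 and 53.4 per kb, and the single L1 entry had no count.

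Reads ran against the R2 entries almost throughout. The antisense share of R2 counts was 99.8% in semen, 97.1% in testes, 98.95% in eggs, 96.3% in spermatheca and 97.0% in ovaries. For TEs with a family other than R2 it was 41.8%, 84.2%, 84.8%, 75.4% and 81.4% in the same tissues. Over all annotated TEs, most of which have no family, it was 32.0%, 62.7%, 10.4%, 13.9% and 11.2%. Single entries weighed heavily on the 3 semen values. LIN9_SM held 6582 of the 6830 R2 counts, and the R2Amel entries alone had an antisense share of 94.35%. R1B_DAn, an entry of family I, gave 372 sense counts among the 1312 counts on other TEs with a family. The element ms43364, which flanks LIN9_SM, held 80687 of the 90962 sense counts on all TEs.

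R2Amel-5 was the exception to this direction. It had 54 sense counts in testes, 349 in eggs, 88 in spermatheca and 716 in ovaries, so that its antisense share was 34.1% in testes (24.8 to 44.9), 49.9% in eggs (46.2 to 53.6), 17.0% in spermatheca (11.0 to 25.2) and 18.4% in ovaries (15.9 to 21.1). Its 2 segments, on GroupUn179 and GroupUn4718, are not counted apart. R2Amel-4 had the next lowest shares where counts were high, with 90.0% in testes, 96.1% in eggs, 86.6% in spermatheca and 90.9% in ovaries. It also held the most sense counts of any R2 entry in these tissues, 1682, 4232, 645 and 3746. The other abundant entries stayed at 96.1% or above in all tissues but semen, where R2Amel-1 had 10 sense counts beside its 72 antisense counts (87.8%, 79.0 to 93.2).

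**Figure D3:**
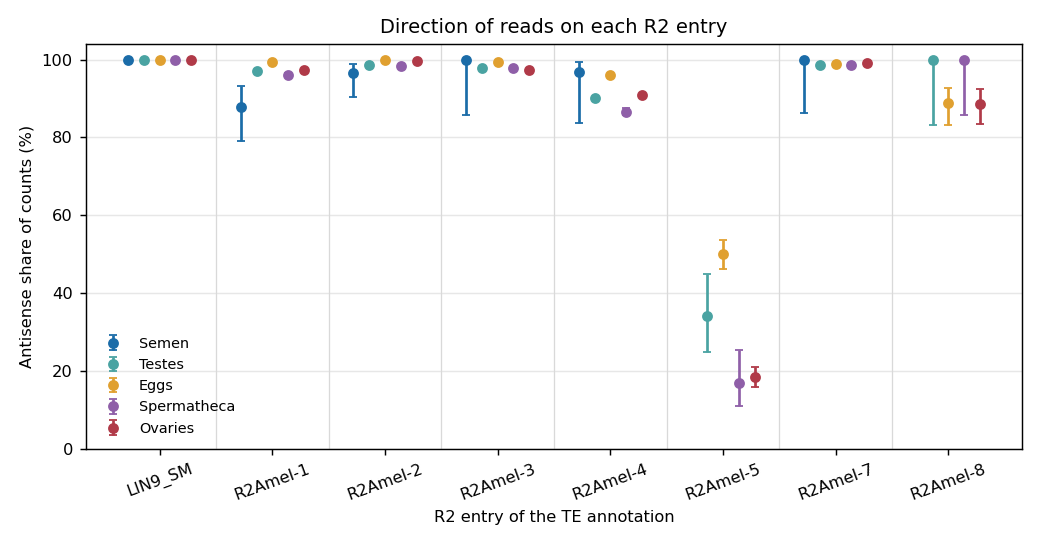
Antisense share of the counts on each R2 entry by tissue, in percent, with 95% Wilson intervals for counting error. LIN9_SM is at 100% in every tissue, and R2Amel-5 lies at 49.9% in eggs and 18.4% in ovaries.

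Each tissue was compared with ovaries after TMM scaling, over TEs that reached 5 counts in one of the paired tissues, and a fold above 5 in either direction was called, with no test. In semen LIN9_SM was 103-fold higher than in ovaries (log2 6.69, 6.57 to 6.81), a direction in which 4.32% of the 1761 TEs compared were called. The 7 R2Amel entries were all called lower in semen, where 29.4% of TEs were. R2Amel-2 had a log2 fold of −6.87 (−7.18 to −6.57) and R2Amel-1 of −7.13 (−7.47 to −6.80). R2Amel-3, R2Amel-4 and R2Amel-7 had log2 folds of −7.42, −7.02 and −6.50. R2Amel-5 and R2Amel-8, at 0 counts in semen, were at least 5.57-fold and at least 5.91-fold lower against a floor of 3 counts in that tissue.

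In testes LIN9_SM was 51.9-fold higher than in ovaries (log2 5.70, 5.58 to 5.81), with 18.0% of 2116 TEs called higher. No R2Amel entry was called in either direction, and 30.9% of TEs were called lower. The log2 folds of the R2Amel entries lay between −2.16 (R2Amel-8) and −0.12 (R2Amel-2).

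In eggs no R2 entry was called, with 2.95% of 2003 TEs called higher and 1.80% lower. LIN9_SM was 1.63-fold higher than in ovaries (log2 0.70), and R2Amel-2, R2Amel-4 and R2Amel-1 had log2 folds of 1.61, 1.39 and 1.31. In spermatheca LIN9_SM was 61.7-fold higher than in ovaries (log2 5.95, 5.83 to 6.07), with 18.9% of 1973 TEs called higher. The R2Amel entries had log2 folds between −0.89 (R2Amel-1) and −0.15 (R2Amel-3), and 1.67% of TEs were called lower. The 4 comparisons share the ovary column. The median log2 fold of the 8 entries was −6.69 in semen, −0.33 in testes, 0.87 in eggs and −0.53 in spermatheca, beside −2.47, −1.07, −0.04 and −0.24 over all TEs compared, with the bounds of semen taken at their value.

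The size of these folds depended on the scaling. Scaling by the antisense total of each table in place of TMM added 3.97 to the log2 folds of the 6 entries with counts in semen, 2.15 in testes and 0.32 in spermatheca, and took 0.45 off in eggs. With totals 6 of the R2Amel entries in testes changed side, R2Amel-2 to a log2 fold of 2.03 and R2Amel-1 to 1.79, while R2Amel-8 stayed at −0.01. LIN9_SM remained higher than in ovaries in semen (10.66), testes (7.85), eggs (0.25) and spermatheca (6.26). The 5 abundant R2Amel entries remained lower in semen, between −3.45 and −2.53, and past 5-fold. Over all TEs this scaling called 6.25% higher and 9.48% lower in semen, and 29.3% higher and 14.5% lower in testes. It called 1.80% higher and 4.44% lower in eggs, and 19.5% higher and 0.912% lower in spermatheca.

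**Figure D4:**
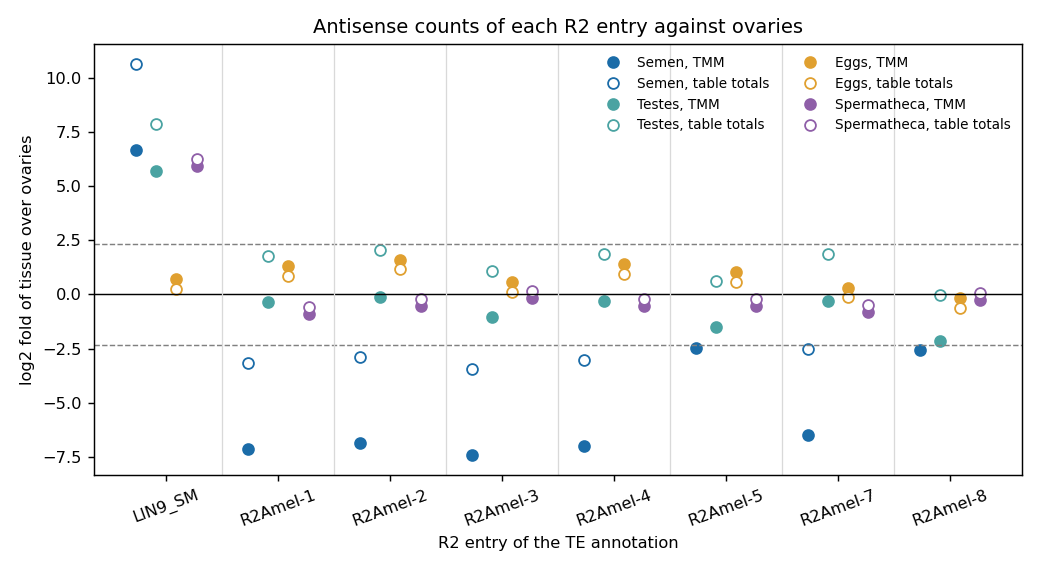
Log2 fold of antisense counts of each tissue over ovaries for each R2 entry, with TMM scaling (filled) and with table totals (open). Dashed lines mark 5-fold, and LIN9_SM lies above the upper line in semen, testes and spermatheca under both scalings. In testes 6 of the R2Amel entries lie below 0 with TMM and above 0 with totals, while R2Amel-8 stays below 0. R2Amel-5 and R2Amel-8 in semen are bounds and have no value with totals.

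Sense counts could be compared for the 7 R2Amel entries only. In semen 6 of them were called lower than in ovaries, with 29.2% of 1779 TEs called lower and 4.27% higher. Of these calls, those of R2Amel-3, R2Amel-4, R2Amel-5 and R2Amel-7 are bounds against the floor of 3 counts. R2Amel-2 had 3 sense counts in semen, at that floor. R2Amel-1 had 10 sense counts in semen against 2780 in ovaries (log2 −4.90, −5.79 to −4.02). R2Amel-4 had 1 sense count in semen against 3746 in ovaries, and R2Amel-5 had 0 against 716. With table totals none of the 6 was called, with 6.18% of TEs called higher and 4.27% lower. In testes, eggs and spermatheca no entry was called in either direction, with 17.5%, 3.42% and 16.0% of TEs called higher and 27.3%, 2.24% and 0.920% called lower. With table totals 6 entries were called higher in testes, where 38.3% of TEs were called higher and 3.07% lower, R2Amel-2 among them, which had 662 sense counts in testes against 480 in ovaries.

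The counts of genes that overlap R2 segments located part of these reads. In all, 9 annotated genes share bases with an R2 segment, 6 of them on its strand, 2 on the opposite strand and 1 with segments of both orientations. GB43325, a gene of 378 bp on GroupUn98 (bases 25827 to 26204, minus strand), lies wholly inside a segment of R2Amel-2. It had 62 antisense counts in semen, 29219 in testes, 278169 in eggs, 9464 in spermatheca and 85959 in ovaries. If a read on the gene was also counted on the element, this is 72.9% of the R2Amel-2 count in semen (62.7 to 81.2), 66.9% in testes, 90.7% in eggs, 88.5% in spermatheca and 89.5% in ovaries. The antisense counts per kb of GB43325 were then 13.3 times those of the remaining 1864 bp of R2Amel-2 in semen, 9.96 times in testes, 48.1 times in eggs, 38.0 times in spermatheca and 42.0 times in ovaries. Not all R2Amel sequence was read as densely, although single segments are not counted apart. GB43326, 96.5% of which is R2Amel-1 and R2Amel-3 sequence, had 16189 antisense counts per kb in eggs and 13568 in ovaries, against 735897 and 227405 per kb on GB43325.

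On GroupUn179 the gene GB41932, 54.4% of which overlaps R2Amel-1, had 21 antisense counts in semen, 11195 in testes, 72155 in eggs, 4269 in spermatheca and 46111 in ovaries. GB41933, a gene of 12083 bp with 29.99% of its length in 5 of the R2Amel entries, had 20, 10274, 65130, 5563 and 49692. In unscaled counts both had the tissue order of R2Amel-1, highest in eggs and lowest in semen. As a share of antisense gene counts both were highest in testes. GB41932 made 2.85% in testes, 1.43% in eggs and 1.41% in ovaries, and GB41933 made 2.62%, 1.29% and 1.52%. GB41931 (inside R2Amel-8) and GB54079 (inside R2Amel-5) lie on the opposite strand and had no antisense count in any tissue, and at most 36 sense counts, which run against the R2 segment.

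LIN9_SM lies between the 2 parts of another element, ms43364, which is listed as DTX-incomp-chim, has 446 bp and lies on the opposite strand. ms43364 had 80687 sense counts in semen, 30040 in testes, 2576 in eggs, 20080 in spermatheca and 1608 in ovaries, and at most 10 antisense counts. Sense reads of ms43364 and antisense reads of LIN9_SM run along the same strand of the scaffold. The ratio of the ms43364 sense count to the LIN9_SM antisense count was 12.3 in semen (11.9 to 12.6), 1.90 in testes, 2.45 in eggs, 3.28 in spermatheca and 2.61 in ovaries, so semen held proportionally more reads on ms43364. The gene GB43330, 71.2% of which lies in LIN9_SM, had 6750 antisense counts in semen, 17996 in testes, 1248 in eggs, 6988 in spermatheca and 768 in ovaries. These are 1.03, 1.14, 1.19, 1.14 and 1.25 times the LIN9_SM counts.

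The next element on the scaffold with high counts, an R1 entry named R1E_NGi, begins 742 bp from LIN9_SM. It had 4 antisense counts in semen, 532 in testes, 37447 in eggs, 3626 in spermatheca and 18629 in ovaries. Like the R2Amel entries, it had most of its unscaled counts in eggs and ovaries. Unlike R2Amel-1 and R2Amel-2, it had fewer counts in testes than in spermatheca. GB43331 (LOC410775) lies among the R2Amel segments, overlapping 1 of R2Amel-2 and 1 of R2Amel-1, and 168 of its 6036 bp are R2 sequence. It had 17583 antisense counts in semen, 130105 in testes, 6288 in eggs, 212545 in spermatheca and 2513 in ovaries, the order of LIN9_SM except that spermatheca was highest. R1B_DAn, 63 bp that end beside an R2Amel-2 segment, was singled out after its values were seen. It had 372 sense counts in semen, 1045 in testes, 210 in eggs, 708 in spermatheca and 160 in ovaries, and made all of the sense counts of family I in semen.

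GroupUn98 was read on both strands, at different places. Over its 7 annotated genes, a sum chosen after the values were seen, reads along the plus strand, which is antisense to 6 of its R2Amel segments, made 0.324% in semen (0.260 to 0.403), 19.9% in testes, 97.2% in eggs, 5.13% in spermatheca and 94.99% in ovaries. The rest ran along the minus strand, as the antisense reads of LIN9_SM do. In eggs 278169 of the 325688 plus-strand reads lay on GB43325, and in spermatheca 212545 of the 219960 minus-strand reads lay on GB43331, and each of these genes had at least 98.4% of its counts antisense in every tissue. GB43325 is R2 sequence throughout, GB43328 and GB43329 hold none, and the map of the scaffold shows where the segments lie.

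**Figure D5:**
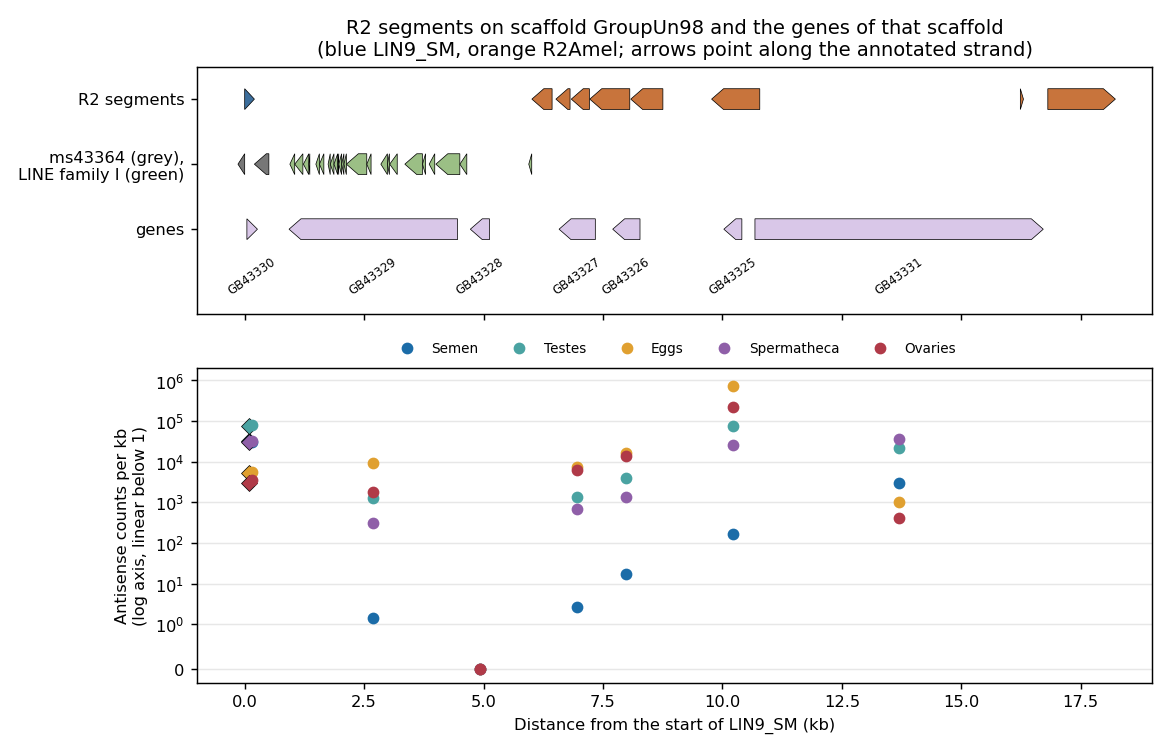
Upper: R2 segments (blue LIN9_SM, orange R2Amel), ms43364 (grey), LINE family I segments (green) and genes on scaffold GroupUn98, as distance in kb from the start of LIN9_SM, with arrows along the annotated strand. Lower: antisense counts per kb of each gene (circles, at its midpoint) and of LIN9_SM (diamonds) by tissue, on a log axis that is linear below 1, with GB43325 at 735897 per kb in eggs and 164 in semen. LIN9_SM, GB43330 and GB43331 have more in semen, testes and spermatheca than in eggs and ovaries.

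Of the 909 other TEs with at least 100 antisense counts, those most like LIN9_SM over the 5 tissues were ms34713 on chromosome 15 (Pearson r 0.9987 on a log2 scale of CPM, the counts scaled to the table total, plus 1) and ms21745 on chromosome 9 (r 0.9980). ms34713 had 50 antisense counts in semen, 136 in testes, 0 in eggs, 68 in spermatheca and 1 in ovaries, so it is sparse. A value above 0.9 was reached by 50 TEs for LIN9_SM and by 111 for R2Amel-1, and with 5 tissues such values are a description only. Outside R2, the TEs most like R2Amel-1 were ms46345 on GroupUn281 (r 0.9993) and the piggyBac-15_SM entry (r 0.9968). Among the R2 entries, R2Amel-1 had r between 0.8539 (R2Amel-8) and 0.9973 (R2Amel-2 and R2Amel-4) with the other R2Amel entries, whereas LIN9_SM had r between −0.66 (R2Amel-5) and −0.31 (R2Amel-7) with them. These points share tables, so depth and the totals of each tissue enter every one of them.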

How the data were processed

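Small RNAs of 24 libraries from semen, testes, eggs, spermatheca and ovaries were sequenced by the authors and mapped to Amel 4.5, and only mapped reads of piRNA length were kept, without those assigned to known non-coding RNAs (ribosomal RNA and tRNA among them), while reads on mRNA stayed in. The submitters' processing notes also name Bowtie 1.2.3. The deposited counts are raw, were made with featureCounts of Rsubread on TEs and on whole genes, and have 1 column per tissue. How libraries were combined, and how reads with several positions or on overlapping features were treated, is not given in the sources used here. The labels list 2 semen libraries and 3, 2 and 3 testes libraries per age, and these numbers differ from those of the methods. Lengths, also deposited by the authors, are the summed segments of a TE or the whole gene, introns included.

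Members and lists were chosen with earlier results of these data known. Counts were used as deposited. Shares have 95% Wilson intervals (Python 3.11.15, pandas 2.3.3, numpy 2.4.6, statsmodels 0.14.6). Folds over ovaries used TMM factors of edgeR 4.0.16 in R 4.3.3, for TEs that reached 5 counts in one of the paired tissues, called above 5-fold. A fold with fewer than 3 counts on 1 side was computed against 3 counts in that tissue and is a bound. No fold was computed when neither tissue exceeded 3 counts, or when the bound fell on the other side of 1. Other settings tried were table totals, size factors of DESeq2 1.42.0, unscaled counts, no count filter, shares without LIN9_SM or the leading TE, antisense counts only, and counts per kb. The fold code was tested on simulated data.

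All 8 entries were named. Of other features, at most the 2 with the most counts within 5 kb of an entry were to be named, with the other LINE families and the 2 TEs most like LIN9_SM and R2Amel-1. GB43330, GB43326, GB43328, GB43329, GB41931, GB54079 and R1B_DAn fall outside this rule and were picked with their counts in view. RefSeq (Amel_HAv3.1) supplied gene symbols only.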

Additional observations from a re-analysis of the deposited data

How the results depend on the processing

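No paired analysis was possible because the tables hold 1 column per tissue and no replicates, and for the same reason no library could be left out. Without LIN9_SM, R2 held 15.9% of family-assigned counts in semen in place of 83.89%, 43.87% in testes in place of 46.99% and 17.03% in spermatheca in place of 19.63%. Of all TE counts it then held 0.195% in place of 5.106%, 10.37% in place of 11.6% and 0.5337% in place of 0.6346% in these tissues, and its antisense share was 94.35%, 96.7% and 95.64%. In eggs and ovaries these values moved by less than counting error. Counting antisense reads only, the family-assigned share was 92.56% in semen, 50.56% in testes, 25.26% in eggs, 23.79% in spermatheca and 16.15% in ovaries. Without the most counted TE of a tissue, R2 held 12.87%, 12.22%, 0.9939%, 0.7283% and 0.6072% of all TE counts in that order, so the semen share, 5.106% with that TE, came near the share of testes. Per kb, the leading entry held 99.68% (LIN9_SM), 61.33% (LIN9_SM), 44.09% (R2Amel-2), 69.4% (LIN9_SM) and 34.34% (R2Amel-2) of the summed density.

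Scaling by table totals called 5 antisense entries lower in semen in place of 7, since R2Amel-5 and R2Amel-8 lost their bounds, and in the sense table it called 0 entries lower in semen and 6 higher in testes. Over all TEs it called 9.48% lower in semen for antisense counts. For sense counts it called 4.27% lower in semen and 38.3% higher in testes. With DESeq2 size factors, 1 entry was called lower in testes in each direction of reads, where 35.8% (antisense) and 33.3% (sense) of TEs were. Unscaled counts called 2 antisense and 3 sense entries lower in testes, and 7 and 6 in spermatheca, whose antisense table holds 836416 counts against 6472464 in ovaries. They called 42.2% (antisense) and 45.1% (sense) of all TEs lower in testes, and 48.5% and 51.1% in spermatheca. No count of called entries changed without the filter on low counts. With table totals the sign of the antisense fold changed for 6 of 8 entries in testes, 1 in eggs and 2 in spermatheca, none of them called. The low counts in semen limit what can be said there: 234 antisense reads lie on the R2Amel entries together.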
